A study of Arabidopsis thaliana with 30 samples.

Results

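A set of 6 loci, called the members, was followed through 30 root RNA-seq libraries of Arabidopsis thaliana: AT1G15405, AT3G63052, AT2G07671, AT2G01021, AT3G08520 and AT2G31141. They were chosen by their measured level, as nuclear transcripts with a high mean TPM (a relative unit: the share of a library's transcripts that a locus takes, corrected for transcript length and scaled to a total of 1000000) out of 32753 loci. All 6 lie among the 10 nuclear loci with the highest mean. The other 4 of those 10, PYK10, PBP1, GSTF9 and AT2G35743, were not members, so the choice was not a strict cut in rank: AT2G31141 (mean 3239 TPM) was in and PBP1 (mean 3313 TPM) was out. Their high level is therefore a description. All 6 reached 1 TPM in every library, so no member was lost to a filter on low values.

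Roots of 7-day-old seedlings were collected after 4 h of treatment, and polyadenylated RNA was sequenced with a stranded kit. The libraries fell into 10 groups of 3. An RGF1 set of 6 libraries held wild type (Col-0) under mock treatment or under 100 nM RGF1, a secreted peptide of the root tip. An RGI1 set of 12 libraries held wild type and the RiD-RGI1/BAK1 line, each under mock treatment or 1 µM rapamycin. An RGI5 set of 12 libraries held wild type and the RiD-RGI5/BAK1 line, each under mock treatment or 100 nM rapamycin. RGI1 and RGI5 are receptor kinases for RGF peptides, BAK1 is a co-receptor kinase, and rapamycin joins the engineered partners in these lines. The short names RGI1 line and RGI5 line are used below. The labels name neither the promoters that drive the engineered proteins nor the number of independent lines. The mock treatment of the RGI1 and RGI5 sets was DMSO, according to the sample titles.

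The members are of different kinds. AT1G15405 resembles 7SL RNA, the RNA backbone of the signal recognition particle, which carries ribosomes that make secreted and membrane proteins to the endoplasmic reticulum. In plants, genes for 7SL RNA and for several small nuclear RNAs carry a short upstream element followed by a TATA box, and 7SL RNA is made by RNA polymerase III. AT2G07671 encodes subunit c of the mitochondrial ATP synthase and lies in a copy of the mitochondrial genome inserted into chromosome 2. AT3G08520 encodes ribosomal protein L41, the smallest protein of the large ribosomal subunit, and AT2G01021 is a short reading frame beside ribosomal RNA genes. AT3G63052 and AT2G31141 are annotated as uncharacterized proteins.

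The sequences below, taken from the RefSeq TAIR10.1 reference, show what these loci are. The build used by the submitters is not given in the sources used here, so no coordinates are printed. AT1G15405 is a single-exon RNA of 292 bases on the minus strand of chromosome 1, annotated as "other RNA", with a GC content of 58.6% and no run of A longer than 2 bases:
AT1G15405: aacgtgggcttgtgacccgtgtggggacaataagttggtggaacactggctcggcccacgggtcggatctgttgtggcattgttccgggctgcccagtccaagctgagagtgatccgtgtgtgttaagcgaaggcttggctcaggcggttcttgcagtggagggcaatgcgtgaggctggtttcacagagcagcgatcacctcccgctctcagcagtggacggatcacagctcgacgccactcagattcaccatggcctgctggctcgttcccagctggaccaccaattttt
Over 290 aligned bases it was 81.4% identical to the strand opposite to AT4G02970, which RefSeq names 7SL RNA1. It was 81.4% identical over 295 bases to a stretch within AT2G31141, on that gene's own strand, and 69.6% identical over 237 bases to a stretch within AT1G49700. A pseudogene, AT5G36275, was 92.8% identical over 291 bases and had a mean of 0.00583 TPM. AT4G04595 and AT4G04565 were 84.1% and 82.4% identical over 295 bases on their own strand, and neither is in the deposited table. Further stretches lie in AT5G09730 (80.7% over 295 bases), AT5G09700 (78.7% over 211) and AT2G41310 (72.2% over 234). Whether reads of these loci were assigned to AT1G15405 was not tested. AT1G05163 is annotated over the same bases as AT1G15405 on the same strand and was not analysed here. Of the copy in AT2G31141, 164 bases are coding, and 79.9% of these matched AT1G15405. They are shown with capitals at the bases that differ, because this is the member whose level followed that of AT1G15405 most closely from library to library:
AT2G31141: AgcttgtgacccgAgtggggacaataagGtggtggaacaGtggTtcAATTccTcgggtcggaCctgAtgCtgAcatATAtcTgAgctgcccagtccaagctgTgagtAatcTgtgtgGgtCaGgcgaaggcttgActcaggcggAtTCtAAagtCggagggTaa

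The 100 bases before the start of each RNA, or before the start of the copy within AT2G31141 and AT4G02970, are shown on the strand of the RNA. They are printed because AT1G15405 and AT3G63052, members of different kind, shared a motif there. The windows of AT2G31141 and AT4G02970 precede stretches like AT1G15405 itself, so they are not cases independent of its window. Capitals mark the 9 letters CCCACATCG, the core of the upstream element of plant small nuclear RNA and 7SL RNA genes:
AT1G15405: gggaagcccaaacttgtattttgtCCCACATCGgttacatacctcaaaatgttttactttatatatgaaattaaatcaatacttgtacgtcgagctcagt
AT3G63052: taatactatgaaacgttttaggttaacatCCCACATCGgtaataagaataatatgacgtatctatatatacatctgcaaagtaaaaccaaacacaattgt
AT2G31141: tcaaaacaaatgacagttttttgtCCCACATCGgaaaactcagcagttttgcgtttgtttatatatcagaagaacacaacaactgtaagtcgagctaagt
AT4G02970: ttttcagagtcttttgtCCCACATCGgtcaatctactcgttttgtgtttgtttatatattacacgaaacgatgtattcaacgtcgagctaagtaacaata
AT3G61198: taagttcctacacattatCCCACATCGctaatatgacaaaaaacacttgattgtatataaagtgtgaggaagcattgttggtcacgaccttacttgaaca
The motif began 76 bases before AT1G15405, 71 before AT3G63052, 82 before AT3G61198, an annotated non-coding RNA, and 76 and 83 before the copies in AT2G31141 and AT4G02970. Each window also held the letters TATA after the motif. The motif was searched after these levels had been seen. Among 37899 windows of 100 bases upstream of annotated genes, 0.19% held it on either strand and 0.156% on the strand of the gene. Of 82 windows upstream of small nuclear RNA genes, 29 held it on the gene strand. Among loci in the deposited table, 14 held it on the gene strand, and 10 of these had a mean of at least 1 TPM. By a slightly different measure, 20113 of all 32753 loci reached 1 TPM in at least 3 of 30 libraries. A match describes the letters and shows no binding.

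The other members have copies elsewhere, which bears on how their values can be read. The 776-base transcript of AT2G07671 matched the mitochondrial genome of the same reference at every base, and 225 of the 225 coding bases of mitochondrial atp9 were found in it. The values of AT2G07671 and of ATMG01080, the locus of mitochondrial atp9, are therefore uncertain as to source. AT2G01021 is 102 bases long, lies next to AT2G01020 in the ribosomal RNA region of chromosome 2, and has an identical copy on chromosome 3. The ribosomal RNA loci AT2G01010, AT2G01020, AT3G41768 and AT3G41979 were not analysed here. The reading frames of AT2G01021 and AT3G63052 are:
AT2G01021: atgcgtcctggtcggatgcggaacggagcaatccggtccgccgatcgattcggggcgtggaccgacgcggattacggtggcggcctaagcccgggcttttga
AT3G63052: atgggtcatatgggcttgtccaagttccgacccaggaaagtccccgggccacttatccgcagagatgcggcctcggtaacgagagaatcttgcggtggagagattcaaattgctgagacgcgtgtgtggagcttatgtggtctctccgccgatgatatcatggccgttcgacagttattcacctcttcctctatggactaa
AT3G08520 shares its 78-base reading frame with 4 other RPL41 genes, and 92.3% to 98.7% of the bases were identical. Capitals mark the bases that differ from AT3G08520:
AT3G08520: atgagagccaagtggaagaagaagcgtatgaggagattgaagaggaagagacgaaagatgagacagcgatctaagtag
AT3G56020: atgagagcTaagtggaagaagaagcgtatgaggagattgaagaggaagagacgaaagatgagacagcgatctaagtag
AT3G11120: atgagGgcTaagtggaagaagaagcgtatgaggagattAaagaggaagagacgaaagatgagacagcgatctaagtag
AT2G40205: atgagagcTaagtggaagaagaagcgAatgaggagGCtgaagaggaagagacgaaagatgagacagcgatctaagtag
AT1G56045: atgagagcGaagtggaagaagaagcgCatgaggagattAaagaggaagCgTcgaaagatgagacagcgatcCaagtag

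Each library held between 18999 and 19331 loci at 1 TPM or more. TPM keep no record of the number of reads, which leaves the depth unknown. The 7 root markers were present, with a summed level of 9889 to 12716 TPM that was mostly PYK10, while 6 markers of green shoot tissue summed to 23.2 to 72.2 TPM and 3 flower markers to at most 0.268 TPM. In bulk samples such as these, fewer cells of a type and less RNA per cell cannot be told apart. Nothing in the labels ties replicates to separate plantings, so every p-value reflects only how far these samples scatter, and that scatter may be technical.

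Together the 6 members took 12% of the TPM total on average, from 7.59% to 15.6% of a library. AT1G15405 alone took 8.0%, and its share ranged 3.0-fold, from 3.95% to 11.9%. In the RGF1 set it was 3.95%, 4.09% and 7.67% under mock treatment and 8.73%, 10.1% and 6.76% with RGF1. The highest mock library lay above the lowest RGF1 library, so these groups overlapped. Polyadenylated RNA was sequenced, and whether the RNAs of AT1G15405 and AT2G01021 carry a poly(A) tail was not tested. The shares of these loci therefore describe the libraries and may differ from their shares of all root RNA.

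In the RGI1 set the share of AT1G15405 was 7.48%, 6.21% and 7.32% in wild type under mock treatment and 9.52%, 7.17% and 6.63% in wild type with rapamycin. In the RGI1 line it was 11.2%, 10.8% and 10.6% under mock treatment and 11.9%, 8.51% and 9.15% with rapamycin. All 3 mock libraries of the RGI1 line lay above all 6 wild-type libraries of the set. In the RGI5 set it was 5.77%, 7.42% and 9.58% in wild type under mock treatment and 7.06%, 6.92% and 9.33% with rapamycin, and in the RGI5 line 9.91%, 8.99% and 8.74% under mock treatment and 5.85%, 6.59% and 6.24% with rapamycin. Within the RGI5 line the mock and rapamycin libraries did not overlap.

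Ordered by mean share, AT1G15405 was lowest in mock-treated wild type of the RGF1 set (5.24% ± 2.11, SD, n = 3), followed by the RGI5 line with rapamycin (6.23% ± 0.371), mock-treated wild type of the RGI1 set (7.00% ± 0.694) and of the RGI5 set (7.59% ± 1.91), wild type with 100 nM (7.77% ± 1.35) and with 1 µM rapamycin (7.77% ± 1.54), and wild type with RGF1 (8.52% ± 1.66). The highest were the RGI5 line under mock treatment (9.21% ± 0.613), the RGI1 line with rapamycin (9.84% ± 1.78) and the RGI1 line under mock treatment (10.9% ± 0.279). Each group in this order overlapped the next one. A test of the wild-type mock groups of the 3 sets gave an exact permutation p of 0.336.

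**Figure D1:**
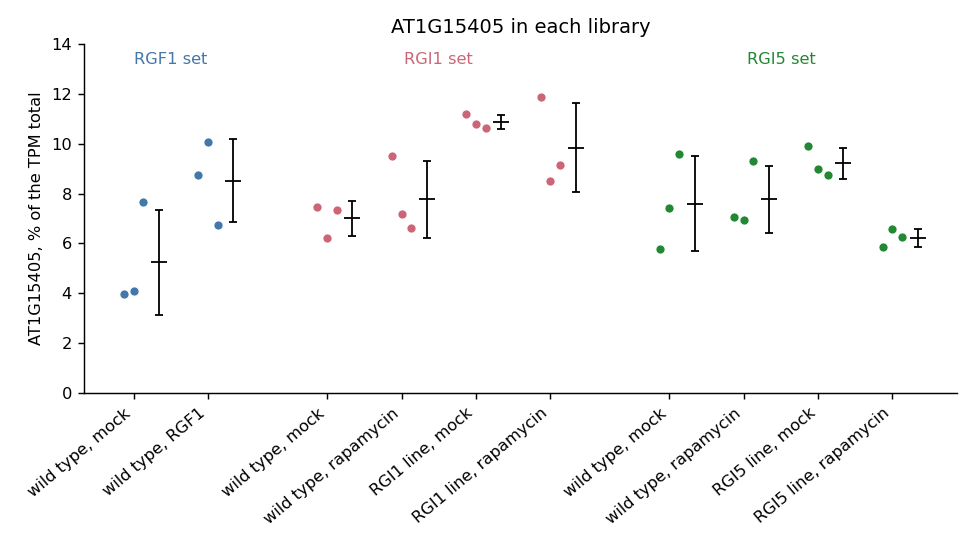
Share of the TPM total taken by AT1G15405 (y axis, %) in each of 30 libraries (points), by group and set, with the group mean and SD beside the points (black). Libraries ran from 3.95% to 11.9%, and the mock-treated RGI1 line held the highest mean, 10.9%.

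The share of AT1G15405 was compared by exact two-sided permutation tests, in which 3 against 3 cannot give a p below 0.10. It was 3.28 percentage points higher with RGF1 than with mock treatment (p = 0.20, exact test, Benjamini-Hochberg adjusted p = 0.45). It was 3.87 points higher in the RGI1 line than in wild type under mock treatment, with no overlap (exact p = 0.10), a separation that 39.4% of all genes tested showed in that comparison. It was 2.99 points lower with rapamycin than with mock treatment in the RGI5 line, with no overlap (exact p = 0.10), as 18.4% of genes, and 1.54 points lower in the RGI5 line than in wild type with rapamycin, with no overlap (exact p = 0.10), as 17.5% of genes. The other 5 comparisons overlapped. Over both treatments together, the RGI1 line was 2.97 points above wild type (exact stratified permutation p = 0.015, adjusted p = 0.045 over 3 tests, higher in both treatments). That adjusted p was 0.075, 0.09 and 0.06 without wild type with rapamycin replicates 2 and 4 and without replicate 1 of the RGI1 line with rapamycin. Over the 4 pairs of groups, rapamycin against mock differed by -0.77 points (exact stratified p = 0.187), and the RGI5 line differed from wild type by 0.04 points (exact stratified p = 0.965).

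In limma, fitted to log2(TPM + 1) over all genes of a set, AT1G15405 was 0.64 higher on the log2 scale (SE 0.17, adjusted p = 0.0265) in the RGI1 line than in wild type under mock treatment. AT2G31141 was also called there, so 2 of the 6 members were, where 16.5% of all 19634 genes tested were called. Of the 19634, 75.9% were lower in the RGI1 line on the total as deposited, which the rise of AT1G15405 itself lowers, and 61.8% of genes were lower once TPM were rescaled without AT1G15405. These 2 members were higher on both totals. AT1G49700, which also holds a stretch like AT1G15405, was higher as well, by 0.48 (SE 0.10, adjusted p = 0.00633), and rose from 2082 ± 175 to 2907 ± 139 TPM (SD, n = 3). It was picked after its values were seen. AT4G02970, with a closer stretch, was at 7.04 ± 1.26 TPM in wild type and 8.38 ± 1.36 TPM in the line, and these groups overlapped. AT2G41310, with a stretch 72.2% identical over 234 bases, was not read in this comparison. Leaving out 1 library kept the limma call of AT1G15405 in 2 of 6 cases: its adjusted p ran from 0.0392 to 0.101 and passed 0.05 without wild-type mock replicate 2 or without any 1 library of the mock-treated RGI1 line. The limma call of AT2G31141 was also kept in 2 of 6 cases (adjusted p from 0.0246 to 0.106), and passed 0.05 without wild-type mock replicates 2 or 3 or RGI1 line mock replicates 1 or 3. With no filter on low values the adjusted p was 0.711 for AT1G15405 and 0.0791 for AT2G31141, and in a limma fit of all 30 libraries 0.0544 and 0.0847. With quantile normalization AT2G31141 was 0.29 higher and no longer called (limma adjusted p = 0.0776).

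No member was called by limma in the other 8 comparisons. The share of all genes called was 0.14% for RGF1 against mock, 0% for rapamycin in wild type of the RGI1 set, 4.05% for rapamycin in the RGI1 line, 0.00509% for rapamycin in wild type of the RGI5 set and 0% for rapamycin in the RGI5 line. It was 8.05% for the RGI1 line against wild type with rapamycin, 0.438% for the RGI5 line against wild type under mock treatment and 0.112% with rapamycin. AT1G15405 differed by 0.75 (SE 0.26, limma adjusted p = 0.396) with RGF1 and by -0.56 (SE 0.19, limma adjusted p = 0.344) with rapamycin in the RGI5 line. Whether the response of AT1G15405 to rapamycin differed between line and wild type was tested as an interaction in limma. The difference was -0.30 (SE 0.25, adjusted p = 0.702) for the RGI1 line and -0.61 (SE 0.27, adjusted p = 0.436) for the RGI5 line.

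AT2G31141 had its highest group mean in the mock-treated RGI1 line. In TPM it was 3859, 3156 and 3275 in wild type under mock treatment and 4343, 5015 and 4342 in the RGI1 line. The groups did not overlap, as for 39.4% of genes in that comparison, and the difference was 0.42 on the log2 scale (SE 0.11, limma adjusted p = 0.0265). With RGF1 it was 2818, 3529 and 2680 TPM against 1644, 1814 and 2539 TPM under mock treatment, again without overlap, as 15.6% of genes in that comparison, at 0.60 (SE 0.16, limma adjusted p = 0.272). In the RGI5 line it was 3644, 3322 and 3265 TPM under mock treatment and 2207, 2307 and 2395 TPM with rapamycin, at -0.57 (SE 0.15, limma adjusted p = 0.263). Nearly all of its level stood under the second of its transcript models (mean 3239 TPM), and the first had a mean of 0.0191 TPM. AT2G31141 overlaps AT2G31140 and AT2G31150 on the opposite strand, and the counting was not stated to use strand.

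AT3G63052 took 1.73% of the total on average, from 1.36% to 2.70%. In TPM it was 15194, 15413 and 19734 under mock treatment and 21122, 26954 and 18212 with RGF1 in the RGF1 set. The groups overlapped, and the difference was 0.39 (SE 0.16, limma adjusted p = 0.475). In the RGI1 set its group means lay between 14439 ± 1430 TPM (wild type with rapamycin) and 18124 ± 1411 TPM (RGI1 line under mock treatment). In the RGI5 set they lay between 16322 ± 1201 TPM (RGI5 line with rapamycin) and 19467 ± 2575 TPM (wild type under mock treatment).

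**Figure D2:**
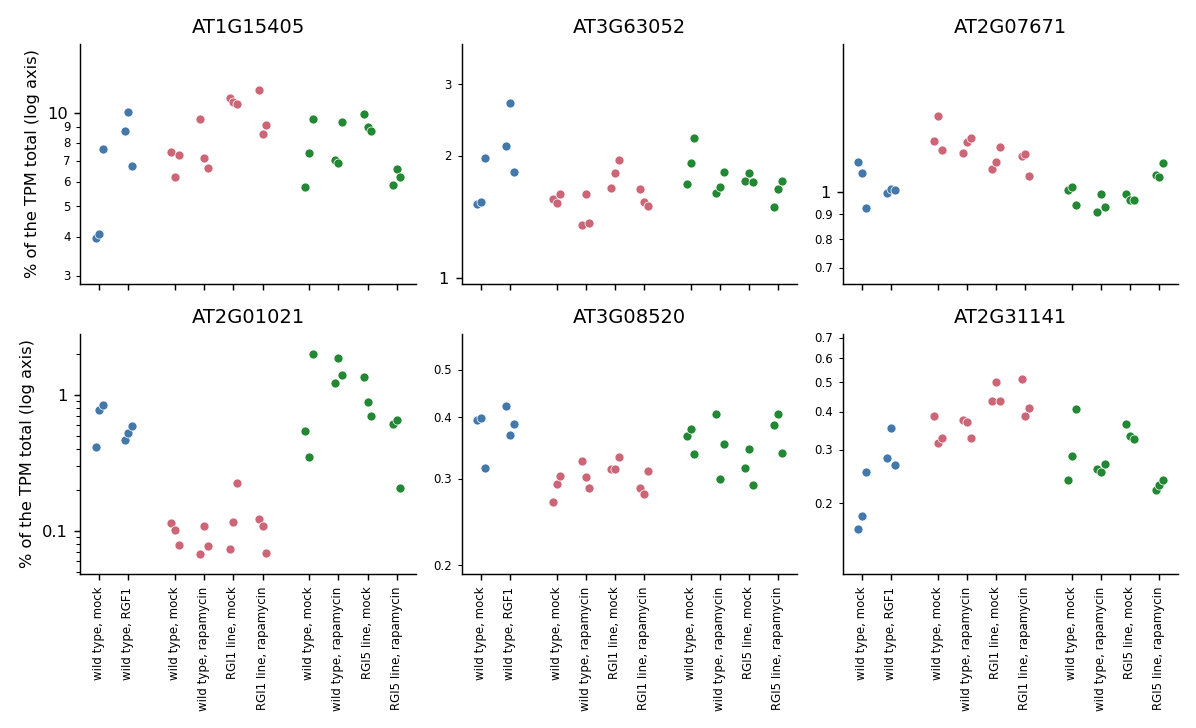
Share of the TPM total (y axis, %, log axis with its own range in each panel) of each member in 30 libraries, by group. AT2G01021 spanned from 0.0676% to 1.99% and was low in every library of the RGI1 set, while AT2G07671 spanned from 0.909% to 1.43%.

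AT2G07671, with the ATP synthase subunit c sequence, was the steadiest of the members together with AT3G08520, each with a highest library 1.57 times its lowest. It ranged from 10775 to 14260 TPM in the RGI1 set and from 9091 to 11479 TPM in the other 2 sets. In wild type under mock treatment its share was 1.30% in the RGI1 set, 1.06% in the RGF1 set and 0.989% in the RGI5 set (exact permutation p = 0.0179, adjusted p = 0.107 over 6 members). The ratio of AT2G07671 to ATMG01080, which has the same coding bases, stayed between 1.70 and 2.28 with a median of 1.81. ATMG01080 itself ranged from 5151 to 6500 TPM.

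AT2G01021, in the ribosomal RNA region, varied most, with a highest library 29.5 times its lowest. It ranged from 676 to 2250 TPM in the RGI1 set, from 4110 to 8455 TPM in the RGF1 set and from 2078 to 19917 TPM in the RGI5 set. The RGI1 set therefore did not overlap the RGF1 set, and the sets cannot be told apart from whatever else differed between them. The share of all genes that separate these sets was not computed. Replicates also differed: mock-treated wild type of the RGI5 set had 5413, 3489 and 19917 TPM. Wild type with rapamycin had 12256, 18529 and 14063 TPM and the RGI5 line with rapamycin 6056, 6502 and 2078 TPM, without overlap, as 17.5% of genes in that comparison. The log2 difference between line and wild type was -1.76 (SE 0.57), which limma did not call (adjusted p = 0.201). Of 17 alternatives 1 called it, the limma fit of all 30 libraries together (adjusted p = 0.0452). AT2G01008, the 1 other locus of the ribosomal RNA list in the table, ranged by less, with group means from 660 ± 147 to 1094 ± 44.6 TPM.

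AT3G08520, an RPL41 gene, ranged from 2690 to 4218 TPM. Its 9 comparisons ran from -0.19 (RGI5 line against wild type under mock treatment, SE 0.11, limma adjusted p = 0.509) to 0.24 (rapamycin in the RGI5 line, SE 0.11, limma adjusted p = 0.451) on the log2 scale. The other RPL41 genes were lower: AT2G40205 had a median of 1386 TPM, AT1G56045 of 936 TPM, AT3G56020 of 533 TPM and AT3G11120 of 529 TPM. Because their reading frames differ at few bases, the split of reads between these genes is uncertain. The summed share of the 4 was 0.303% to 0.401% of a library, and that of AT3G08520 0.269% to 0.422%.

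The level of AT2G31141 followed the share of AT1G15405 from library to library. Here TPM of the other genes were rescaled to a total that leaves AT1G15405 out, so that its own weight in the total plays no part. Over 30 libraries Pearson's r was 0.87 and Spearman's rho 0.85 (permutation p = 1e-05 for both, the smallest that 100000 resamples can give, adjusted p = 0.00015 over 15 relations). Libraries were permuted freely across groups and sets, so the p-values over 30 libraries, here and below, also reflect differences between groups and sets. Within the RGF1, RGI1 and RGI5 sets r was 0.97, 0.93 and 0.88, after removing group means 0.85, and without the 2 libraries farthest from the median share 0.83. For every 100 TPM of AT1G15405 there were 2.89 to 5.16 TPM of AT2G31141, with a median of 3.96. Reads of the 2 loci come from sequences that share 81.4% of their bases, and whether any were assigned to the other locus was not tested.

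AT3G63052 followed it more loosely, with r of 0.48 and rho of 0.56 (permutation p = 0.00615 and 0.00141, adjusted p = 0.0461 and 0.0106). Within the sets r was 0.95, 0.66 and 0.69, after removing group means 0.74 (permutation adjusted p = 7.5e-05), and without the 2 farthest libraries 0.49. On the total as deposited r was 0.38 (permutation adjusted p = 0.101). AT2G07671 gave r of 0.08 (rho 0.01, permutation p = 0.657 and 0.941, adjusted p = 0.779 and 0.941) and was at -0.51, -0.51 and -0.46 within the sets. AT3G08520 gave r of -0.22 (rho -0.20, permutation p = 0.245 and 0.281, adjusted p = 0.488 and 0.463), but 0.66 within the RGI1 set (permutation adjusted p = 0.0458). For AT2G01021, whose libraries fell apart by set, r was -0.02, 0.34 and 0.57 within the RGF1, RGI1 and RGI5 sets. In the other direction, the summed 97 other loci of the mitochondrial insertion on chromosome 2 gave r of -0.47 and rho of -0.49 (permutation adjusted p = 0.0476 and 0.0366). Their r was -0.88 within the RGI1 set (permutation adjusted p = 0.00255), and -0.39 without the 2 farthest libraries (permutation adjusted p = 0.149). Mitochondria-encoded loci gave r of -0.31 (permutation adjusted p = 0.229), and -0.78 within the RGI1 set (permutation adjusted p = 0.0117).

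**Figure D3:**
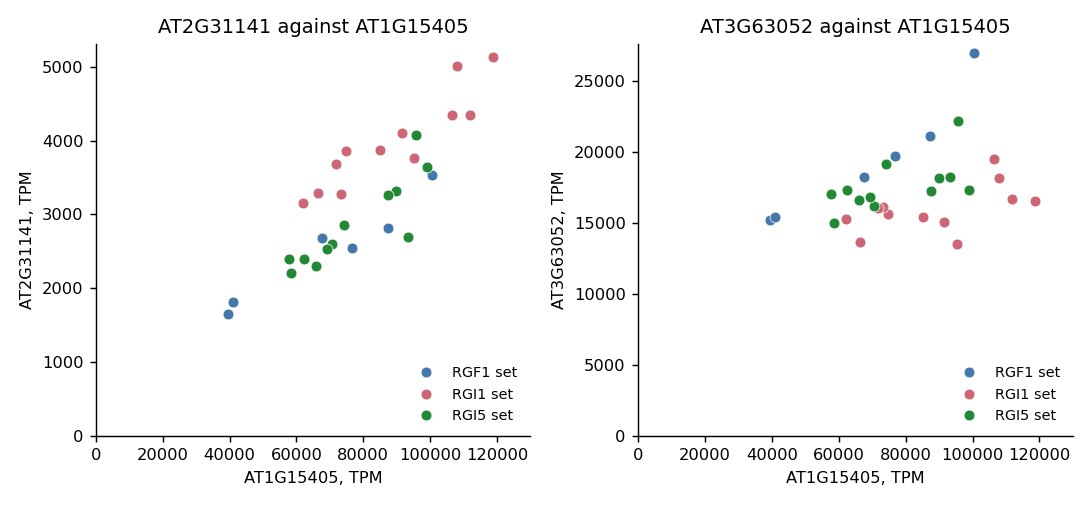
TPM of AT2G31141 (left) and AT3G63052 (right) on the y axes against AT1G15405 on the x axes in 30 libraries, coloured by set. AT2G31141 rose with AT1G15405 in each set (r of 0.97, 0.93 and 0.88 on the rescaled total), with the RGI1 set above the others, and AT3G63052 did so more loosely (0.95, 0.66 and 0.69).

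Likeness to AT1G15405 was measured as Pearson's r on log2(TPM + 1) over 30 libraries among 11646 genes with a mean of at least 10 TPM, rescaled without AT1G15405. AT2G31141 came first with r of 0.88. AT1G64405, an uncharacterized protein, followed at 0.74, then the non-coding RNAs AT3G61198 at 0.69 and AT3G59068 at 0.68, and FMO GS-OX3, a glucosinolate S-oxygenase, at 0.67. AT1G49700 stood at 0.62 (rank 13), AT3G63052 at 0.51 (rank 125) and AT4G02970, the locus named 7SL RNA1, at 0.10. The median over all these genes was -0.05, and 1 gene passed 0.8. These points share libraries and groups, so they are given as a description.

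The same relation was fitted for all genes in limma with group means in the model, so that only differences within groups counted. Of 20241 genes, 3 were called (0.0148%), all higher with a higher share of AT1G15405, and 1863 had an unadjusted p under 0.05. AT2G31141 rose by 0.14 on the log2 scale per percentage point (SE 0.02, limma adjusted p = 0.000418), and stayed called without any 1 of the 30 libraries (adjusted p from 0.000175 to 0.00884). With replicate number added to the model within each set, no gene was called, and AT2G31141 had 0.139 per point (limma adjusted p = 0.686). The non-coding RNA AT3G61198 rose by 0.34 per point (SE 0.06, limma adjusted p = 0.0171) and ranged from 17.7 to 300.2 TPM. Of the 14 loci in the deposited table with the motif on the gene strand, AT1G15405 among them, no other was called. AT4G23420, a Rossmann-fold protein, rose by 0.15 (SE 0.02, limma adjusted p = 0.0171). With log2 of the share AT3G61198 and AT4G23420 each had a limma adjusted p of 0.247, and without a filter on low values 0.0686 and 0.0638. Both of these lost the call without wild type with 1 µM rapamycin replicate 1, without the RGI1 line with rapamycin replicates 1 or 2, and without wild type with 100 nM rapamycin replicate 4, and AT4G23420 also without mock-treated wild type replicate 4 of the RGI5 set. AT3G63052 came next among the members with 0.09 (SE 0.02, limma adjusted p = 0.342), and AT2G01021 with 0.15 (SE 0.09, limma adjusted p = 0.651), AT2G07671 with -0.01 (SE 0.01, limma adjusted p = 0.766) and AT3G08520 with -0.01 (SE 0.02, limma adjusted p = 0.951) were not called.

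The proteins that bind 7SL RNA in the signal recognition particle, and its receptor, were read beside it. Of 9 genes in this list, made after the data had been seen, limma called 0 in each of the 9 comparisons and 0 for the slope. Of all genes tested it called 0% to 16.5% in these comparisons and 0.0148% for the slope, so 0 of 9 says little about this list. The means of the 9 genes ran from 3.61 TPM for a gene of the SRP54 subunit (AT5G49500) to 75.4 TPM for the receptor alpha subunit (AT4G30600), far below AT1G15405 at 80043 TPM, on a scale per length.

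Because TPM sum to a fixed total, a change in the share of AT1G15405 moves every other gene. The rest of the library was 96.0% in the library with the lowest share and 88.1% in the one with the highest, a shift of -0.12 on the log2 scale. The SD of the median log2 level between replicates was 0.03. With RGF1 the arithmetic shift was -0.05, and the median change of the other genes was -0.05 as deposited and -0.0037 without AT1G15405 in the total. In the RGI1 line under mock treatment the shift was -0.06 and the median -0.09, which became -0.04 without AT1G15405. With rapamycin in the RGI5 line the shift was 0.05 and the median 0.06, which became 0.02.

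**Figure D4:**
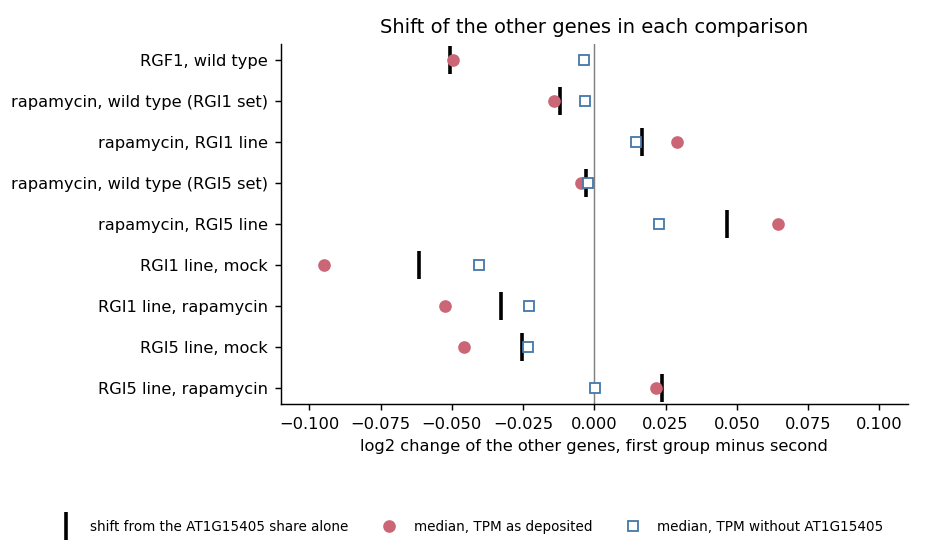
Median log2 change of the other tested genes (x axis) in 9 comparisons, with TPM as deposited (circles) and rescaled without AT1G15405 (squares), and the shift that the change in the AT1G15405 share alone brings (bars). The median for the RGI1 line under mock treatment moved from -0.09 to -0.04, and that for RGF1 from -0.05 to -0.0037.

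Of the 9 comparisons, the RGI1 line against wild type under mock treatment changed its calls most. As deposited, limma called 3239 genes, 393 higher and 2846 lower in the line. Rescaled without AT1G15405, it called 2096 (10.6%), 538 higher and 1558 lower, so that the share called higher went from 12.1% to 25.7%. Leaving out wild-type mock replicates 1 or 2, or RGI1 line mock replicates 1 or 3, gave 1651, 1587, 1686 and 1559 calls as deposited. Both totals called 1947 genes, 1291 were called lower as deposited only, and 146 were called higher on the rescaled total only. SDH2-1, a subunit of succinate dehydrogenase, was at 68.1 ± 2.35 TPM in the line and 77.6 ± 1.82 TPM in wild type, with a log2 change of -0.19 as deposited (limma adjusted p = 0.0102) and -0.12 without AT1G15405 (limma adjusted p = 0.0629). NPC3, a phospholipase C, was at 55.3 ± 0.674 and 51.1 ± 2.20 TPM, with 0.11 as deposited (adjusted p = 0.0931) and 0.17 without AT1G15405 (limma adjusted p = 0.0118).

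In the other comparisons the number of calls moved by less. With rapamycin, the RGI1 line against wild type gave 1580 calls (372 higher, 1208 lower) as deposited and 1480 (513 higher, 967 lower, 7.48%) without AT1G15405, and the share called higher went from 23.5% to 34.7%. Without wild type with rapamycin replicates 2 or 4, or replicate 1 of the line with rapamycin, the calls as deposited were 905, 905 and 982. Rapamycin in the RGI1 line gave 796 (503 higher, 293 lower) and 789 (459 higher, 330 lower, 3.99%), and 530, 422 and 402 as deposited without mock replicates 1, 3 and 4 of the line. RGF1 gave 27 (15 higher, 12 lower) and 23 (16 higher, 7 lower, 0.119%), so the share called higher went from 55.6% to 69.6%. The RGF1 count as deposited was 10 and 17 without mock replicates 1 and 2, and 0, 9 and 1 without RGF1 replicates 2, 3 and 4. The 5 genes called lower as deposited only included DGR1, at 40.5 ± 4.95 TPM with RGF1 and 67.0 ± 4.06 TPM with mock treatment (log2 change -0.72, limma adjusted p = 0.0302 as deposited and 0.0918 without AT1G15405), and XTH17, a cell wall xyloglucan endotransglucosylase (log2 change -0.67, limma adjusted p = 0.0363 and 0.104).

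The RGI5 line against wild type gave 86 calls (17 higher, 69 lower) as deposited and 81 (21 higher, 60 lower, 0.409%) without AT1G15405 under mock treatment. Left-out libraries moved the first count to 29 and 9 (wild-type mock replicates 2 and 3) and to 7, 8 and 181 (line replicates 1, 2 and 4). With rapamycin it gave 22 (11 higher, 11 lower) and 26 (10 higher, 16 lower, 0.131%), so the share called higher went down to 38.5%. As deposited it gave 6 and 9 without wild type with rapamycin replicates 2 and 4, and 9, 84 and 9 without replicates 1, 2 and 3 of the line. Rapamycin in the RGI5 line gave 0 calls on both totals, with 2174 and 1718 genes at an unadjusted p under 0.05 (0% and 0% called). In wild type, limma called 1 gene on both totals with 100 nM rapamycin (0.00505% without AT1G15405), which became 3 without mock replicate 4 and 0 without any other single library. With 1 µM it called 0 genes as deposited, where 1290 had an unadjusted p under 0.05, and 1 gene without AT1G15405 (0.00505%), the clock F-box protein gene FKF1, at 8.75 ± 1.16 TPM against 5.18 ± 0.160 TPM (log2 change 0.67, limma adjusted p = 0.0368).

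**Figure D5:**
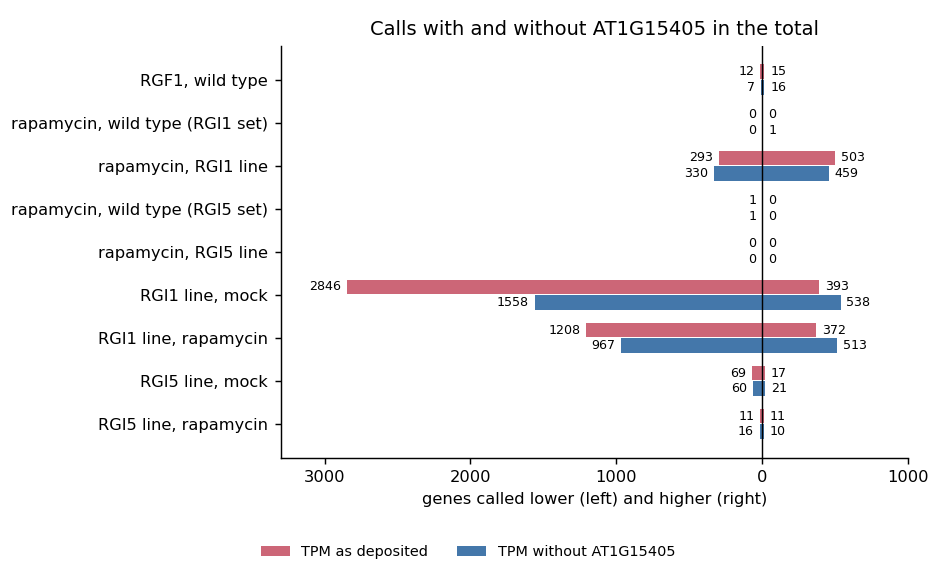
Number of genes called lower (left) and higher (right) by limma at an adjusted p under 0.05 in 9 comparisons, with TPM as deposited and rescaled without AT1G15405. The RGI1 line under mock treatment went from 2846 lower and 393 higher to 1558 lower and 538 higher.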

How the data were processed

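The authors deposited TPM, 1 value per transcript model and library, in a table of 40812 models and 30 columns that each sum to 1000000. The unit was read from these values. Per the submitters' processing notes, the authors used Salmon and DESeq2, named without version or role. Genome build, annotation and counting settings were not given in these sources. TPM were summed over models to 32753 loci, of which 32048 were matched by identifier to RefSeq TAIR10.1. The columns of wild type in the RGI1 set were matched to their samples by elimination, since their names differ slightly from the titles.

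Group means were fitted to log2(TPM + 1) in R 4.3.3 with limma 3.58.1 (trend, empirical Bayes), separately in each set, over genes with at least 1 TPM in at least 3 of its libraries. Adjustment followed Benjamini and Hochberg over all genes of a comparison, and a call is an adjusted p under 0.05. Log2 changes are on the log2(TPM + 1) scale, which understates changes of low genes. The same fits were run on TPM rescaled to a total without AT1G15405. The arithmetic shift is the log2 ratio of what AT1G15405 leaves of the total, between group means. Shares were compared by exact permutation of libraries. Motifs and sequences were read in Python 3.11.15 with Biopython 1.88, and copies were found with blastn 2.17.0.

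The members, the gene lists and the tests were chosen with earlier results of these data known. Named genes were the members, the other RPL41 genes, ATMG01080, ribosomal RNA loci, the 20 loci with the highest mean TPM, the 5 genes most like AT1G15405, up to 5 genes a direction by p for the slope, and up to 2 genes a direction called on only 1 of the totals in each comparison. Not all that the rule allows are printed. AT1G49700, AT4G02970, AT3G61198's motif and the signal recognition particle genes were chosen after their values were seen. The scripts were tested on simulated data.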

Additional observations from a re-analysis of the deposited data

How the results depend on the processing

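Settings that changed a call or a value are grouped here, and the cause of a change was not tested unless stated. Quantile normalization set the log2 change of AT1G15405 in the RGI1 line under mock treatment to 0, by construction, since the most abundant RNA then takes the same value in every library. That change stayed at 0.64 without a filter and in a single fit of 30 libraries but was no longer called, and ran from 0.56 to 0.69 with 1 library left out. AT2G31141 there was at 0.29 and not called with quantile normalization, and at 0.42 and not called without a filter or in the single fit. AT2G01021 in the RGI5 line against wild type with rapamycin stayed at -1.76 and was called in the single fit.

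Counts of calls moved as follows. RGF1 gave 17 calls with quantile normalization, 6 without a filter, 167 in a single fit of all libraries, and 0 to 23 with 1 library left out. Rapamycin in wild type of the RGI1 set gave 1 call without AT1G15405, without all 6 members, with quantile normalization, with median-ratio scaling and in the single fit, and 0 to 1 with a library left out. In wild type of the RGI5 set it gave 0 with pseudocounts of 0.1 and 5, a filter at a mean of 5 TPM and the single fit, and 0 to 3 with a library left out. In the RGI1 line it gave 362 in the single fit and 402 to 695 with a library left out, and in the RGI5 line 75 in the single fit. The RGI1 line against wild type under mock treatment gave 2096 calls without AT1G15405, 1953 without all 6 members, 1796 with quantile normalization, 1693 with median-ratio scaling, and 1559 to 2826 with a library left out. With rapamycin it gave 986 in the single fit and 905 to 1659 with a library left out. The RGI5 line against wild type gave 6 without a filter, 628 in the single fit and 7 to 181 with a library left out under mock treatment, and 6, 663 and 6 to 84 with rapamycin.

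Medians of the other genes went to -0.0037 (RGF1), 0.023 (rapamycin in the RGI5 line) and -0.041 (RGI1 line, mock) without AT1G15405, to 0.0054, 0.013 and -0.034 without all 6 members, and to -0.015 without these for the RGI5 line with rapamycin. With quantile normalization the first 3 were -0.00081, -0.00051 and 0.0052, with 0.0043 for the RGI1 line with rapamycin and 0.0044 for the RGI5 line under mock treatment. With median-ratio scaling these 5 were -0.00068, 0.0060, 0.0028, 0.0018 and 0.0031.

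Libraries with the same replicate number shared little of their deviation over all genes. Deviations of same-numbered libraries correlated at -0.07 to 0.05, -0.04 to 0.07 and -0.06 to 0.12 in the RGF1, RGI1 and RGI5 sets, with 1 of 13 pairs over 0.1 in the last. A pairing that is weak or touches few genes would hardly show in this measure, so it cannot decide whether samples were paired. With a replicate block the calls were 6 for RGF1, 431 for rapamycin in the RGI1 line, 918 for the RGI1 line against wild type with rapamycin, 15 and 10 for the RGI5 line against wild type under mock treatment and with rapamycin, and 0 for the slope, where AT2G31141 had 0.139 per point (limma adjusted p = 0.686) against 0.142 without the block. With the block AT2G01021 in the RGI5 line under mock treatment went to -0.056.

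The slope count was 545 on TPM as deposited (6 higher, 539 lower, median slope -0.020), 663 with set in place of group (64 higher, 599 lower), 1 with log2 of the share, 1 without a filter (median -0.0025), and 1 to 4 with a library left out. The median was 0.00034 with quantile normalization.

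Uncalled changes of members reversed sign under scaling: AT2G07671 to 0.060 (rapamycin in the RGI1 line, quantile) and 0.029 (RGI5 line, mock, median-ratio), AT3G08520 to 0.00028 (RGI1 line with rapamycin, median-ratio) and -0.059 (RGI5 line with rapamycin, quantile), and AT3G63052 to 0.15 (RGI5 line with rapamycin, quantile). With a library left out, rapamycin gave -0.017 to 0.24 and -0.13 to 0.23 for AT1G15405 in wild type of the RGI1 and RGI5 sets, -0.11 to 0.0067 for AT2G07671 and -0.15 to 0.072 for AT3G08520 in these, and -0.050 to 0.031, -0.74 to 0.068 and -0.19 to 0.011 for AT2G07671, AT2G01021 and AT2G31141 in the RGI1 line. RGF1 gave -0.018 to 0.15 for AT3G08520. AT2G01021 ran from -0.072 to 0.73 and AT2G31141 from 0.35 to 0.50 in the RGI1 line under mock treatment, from -0.14 to 1.12 and -0.0029 to 0.38 in the RGI5 line, and AT3G08520 from -0.012 to 0.21 in the RGI5 line with rapamycin. The difference in the AT1G15405 share ran from -0.10 to 1.34 and from -0.73 to 1.17 points for rapamycin in both wild types, from 2.47 to 3.41 for the RGI1 line and from -0.41 to 0.54 for the RGI5 line over both treatments.

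Correlations with the share, r on 30 libraries unless a set is named, changed as follows. The median of the other genes went from -0.38 to -0.84 as deposited, -0.56 with group means removed and -0.85 in the RGI1 set. AT3G63052 had 0.38 as deposited. AT2G07671 had -0.10 as deposited, -0.27 with group means removed, and -0.51, -0.51 and -0.46 in the RGF1, RGI1 and RGI5 sets. AT2G01021 had 0.40 with group means removed, 0.015 without the 2 farthest libraries, and 0.34 and 0.57 in the RGI1 and RGI5 sets. AT3G08520 had 0.043 and 0.66 in the RGF1 and RGI1 sets. As deposited, the other RPL41 genes had -0.092, cytosolic ribosomal proteins -0.29, plastid-encoded genes -0.21, nuclear photosynthesis genes -0.019 and non-coding RNAs -0.29. With group means removed the last 3 had -0.22, -0.22 and -0.20, and without the 2 farthest libraries plastid-encoded genes and non-coding RNAs had -0.089 and -0.059. In the RGF1 and RGI5 sets plastid-encoded genes had -0.64 and -0.64, nuclear photosynthesis genes -0.47 and -0.056, and non-coding RNAs -0.68 and -0.61. Short genes had -0.44 in the RGI5 set. AT2G01008, the 1 locus of the ribosomal RNA list in the table, had -0.60 in the RGI1 set. TPM hold no depth, so counting error is unknown for all of these.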

Other observations

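Among the other abundant loci, AT2G35743, a transcribed pseudogene, ranged from 1475 to 6840 TPM over 30 libraries, and the plastid locus ATCG00510 from 1414 to 6024 TPM. The 111 plastid-encoded loci together took 5.04% to 6.71% of a library and the 138 mitochondria-encoded loci 3.77% to 5.56%, both below the highest share of AT1G15405. The 97 other loci of the mitochondrial insertion on chromosome 2, without AT2G07671, took 1.14% to 1.72%. AT2G07671 alone took 0.909% to 1.43%. AT4G02970, the locus named 7SL RNA1, had group means from 6.88 ± 0.906 TPM in wild type with 1 µM rapamycin to 17.0 ± 2.03 TPM in wild type with 100 nM rapamycin, and all 4 group means of the RGI5 set lay above all 4 of the RGI1 set. AT3G61198 differed the other way, with 47.6 to 300.2 TPM in the libraries of the RGI1 set and 17.7 to 37.9 TPM in those of the RGI5 set, without overlap. The share of all genes that separate these sets in this way was not computed. The highest AT3G61198 library was replicate 1 of the RGI1 line with rapamycin, whose other libraries had 65.0 and 76.9 TPM, and the next was replicate 1 of wild type with 1 µM rapamycin at 199 TPM, whose other libraries had 55.4 and 47.6 TPM. Whatever else differed between the sets cannot be told apart from these levels.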
